A study of Homo sapiens with 4 samples.

Results

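ATF4 and 9 genes that act beside it in the cellular stress response were followed through a knockdown of NME7. They are ATF4, ATF3, ATF5, DDIT3, TRIB3, CEBPB, CEBPG, NUPR1, SESN2 and DDIT4, 10 of the 58735 genes in the deposited tables. The genes were chosen by function and because ATF4 targets had been seen to have lower FPKM in shNME7 than in shCtrl libraries. That same comparison therefore helped to choose them, and its values are given here as a description and not as a test of the group. All 10 had a mean of at least 1 FPKM (a fragment count scaled to exon length and library size) over the libraries and were among the 12866 genes that did.

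The series holds 4 RNA-seq libraries from cells labelled Huh7, an established human hepatoma line. In 2 of them the cells carried a control short hairpin RNA (shCtrl 1 and shCtrl 2), and in the other 2 a hairpin against NME7 (shNME7 1 and shNME7 2). All cells thus carried a hairpin, and no library came from cells without one. The sources used here do not say how many hairpins against NME7 were used, how they were delivered or how long they acted. Nothing in the labels says that libraries of one group came from separate cultures, so a p-value measures no more than the spread between these 4 samples, and that spread may be technical.

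ATF4 is a transcription factor of the basic leucine zipper (bZIP) family, whose members bind DNA as dimers. Amino acid shortage, unfolded protein in the endoplasmic reticulum, heme shortage or viral RNA each switch on a kinase that phosphorylates the initiation factor eIF2. General translation then slows, while the ATF4 message, which carries short upstream reading frames, is translated more, a programme known as the integrated stress response. ATF4 pairs with C/EBP proteins at composite sites called C/EBP-ATF response elements (CARE) and raises transcripts for amino acid uptake, amino acid synthesis and tRNA charging. It also raises further regulators, among them ATF3, DDIT3, TRIB3 and SESN2, some of which feed back on ATF4 or on the growth kinase complex mTORC1. Transcript levels, as measured here, do not show how much ATF4 protein was made.

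The sequences just before the start sites show which of these genes hold the core of such an element there. RefSeq start site windows on GRCh38.p14 (250 bases before to 50 after each start) were at hand for 9 of the 10 genes, 18 windows in all, with none for NUPR1. The CARE core was searched as TGATGNAA on both strands. It occurred in 2 of the 9 genes, CEBPG and ATF3, and in 4.46% of the 27305 genes with a window. By window it was in 2 of the 18 and in 3.62% of all 35116. The stretches below leave out every annotated exon and run 5′ to 3′ on the plus strand, which is the strand of all 4 genes. The 2 CARE stretches come first, with the core in capitals, at chr19:33373896-33374112 for CEBPG and chr1:212565157-212565333 for ATF3. SESN2 (chr1:28259268-28259517) and TRIB3 (chr20:381170-381245) follow because they had the largest log2 differences of the 10 genes. Capitals in the SESN2 stretch mark CCAAT boxes, read as ATTGG on this strand, and the TRIB3 stretch holds none of the motifs searched.
CEBPG: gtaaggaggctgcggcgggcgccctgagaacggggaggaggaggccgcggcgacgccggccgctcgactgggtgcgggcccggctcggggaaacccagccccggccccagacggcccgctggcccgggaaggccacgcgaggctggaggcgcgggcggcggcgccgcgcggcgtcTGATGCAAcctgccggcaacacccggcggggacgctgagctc
ATF3: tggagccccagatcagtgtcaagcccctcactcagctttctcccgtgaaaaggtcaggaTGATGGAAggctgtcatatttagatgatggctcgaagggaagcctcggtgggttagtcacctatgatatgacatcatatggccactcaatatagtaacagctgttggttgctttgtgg
SESN2: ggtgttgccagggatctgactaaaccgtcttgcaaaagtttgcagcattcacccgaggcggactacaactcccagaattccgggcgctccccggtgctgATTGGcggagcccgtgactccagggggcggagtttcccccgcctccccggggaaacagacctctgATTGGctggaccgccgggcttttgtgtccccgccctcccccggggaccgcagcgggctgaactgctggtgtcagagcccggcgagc
TRIB3: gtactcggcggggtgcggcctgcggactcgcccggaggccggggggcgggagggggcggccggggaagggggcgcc
In CEBPG the core, read as TGATGCAA, began 42 bases before the start at position 33374113. Another CEBPG start lies upstream of it, at position 33373709, so this stretch is inside the gene as annotated (chr19:33373330-33382686). The TRIB3 stretch likewise lies inside its gene (chr20:362835-397559). In ATF3 it was read as TGATGGAA and began 191 bases before the start at position 212565407. The full cyclic AMP response element TGACGTCA, another site bound by ATF and CREB factors, was in 0 of the 9 genes and in 2.25% of all genes with a window. Its shorter core TGACG, which also lies inside TGACGTCA, was in ATF4, ATF5 and CEBPB and in 28.4% of all such genes. The AP-1 site TGANTCA was in ATF5 and DDIT3 and in 9.37% of all such genes. CCAAT boxes were in 6 of the 9 genes and in 39.7% of all such genes. A gene with more windows has more room for a match. By window, TGACG was in 4 of the 18 (24.6% of all windows), the AP-1 site in 3 (7.71%) and a CCAAT box in 8 (34.6%). A match is a description of these letters, and its absence says only that the letters are not in these windows.

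The libraries were compared with their labels before the 10 genes were read. NME7, which encodes a nucleoside diphosphate kinase family protein, had 332 and 364 fragments in the shCtrl libraries against 72 and 61 in the shNME7 libraries, a mean FPKM 5.18-fold lower. Markers of liver cells were near 0 in every library labelled Huh7, with 0 or 1 fragment per library for ALB and for AFP. These levels do not bear out the liver origin that the label implies, and the identity of the cells was not tested. Of 10 hepatocyte markers 0 had a mean of at least 1 FPKM, APOA1, APOB and FGB were at 0 throughout, and the summed level of all 10 was 0.0564 to 0.136 FPKM. Of 7 fibroblast markers 3 had at least 1 FPKM (COL1A1, COL3A1 and LUM). The summed level of all 7 was 101 and 90.8 FPKM in shCtrl against 97.5 and 95.7 in shNME7. Most of it was COL3A1, at 66.9 to 76.6 FPKM. COL1A2, DCN and THY1 were near 0, at no more than 0.0837 FPKM, and PDGFRA was at 0. Leukocyte markers had 0 of 7 at that level and endothelial markers 1 of 5 (CDH5), with a summed level of 2.37 and 2.03 against 2.87 and 3.54 FPKM. The part of these levels in the differences below was not tested. Between 14877906 and 16991397 fragments were recovered per library, so that a count of 0 allows up to 3 fragments, or 0.177 to 0.202 CPM. Across 12857 genes, which are not independent replicates, the log2 difference, shNME7 minus shCtrl, was higher where GC content was higher (Spearman rho 0.41), and a fit with a trend on GC content and length removed from each library is given beside several of the values that it moved. In bulk RNA, fewer cells of a type and less RNA per cell cannot be told apart.

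Each of the 10 genes had a lower mean level in shNME7 than in shCtrl. For 9 of them, ATF5 being the exception, each shNME7 library lay below each shCtrl library, a pattern shown by 18.4% of all tested genes (17.8% showed the reverse). The median log2 difference of the 10 genes, shNME7 minus shCtrl on the log2(FPKM + 1) scale, was -0.58, beside 0.01 over all 12866 tested genes, of which 47.8% were lower. It was -0.65 with the trend on GC content and length removed. Since this comparison chose the genes, nothing further is read from these counts. The test across all genes, limma-trend with Benjamini-Hochberg adjustment, called 0 genes lower (0% of those tested), with 414 lower and 445 higher at an unadjusted p under 0.05, 6 of the 10 genes among the lower. A second test, limma-voom on the recovered fragments of 15112 genes, called 14 lower (0.0926%) and 2 higher, and of the 10 genes it called TRIB3.

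**Figure D1:**
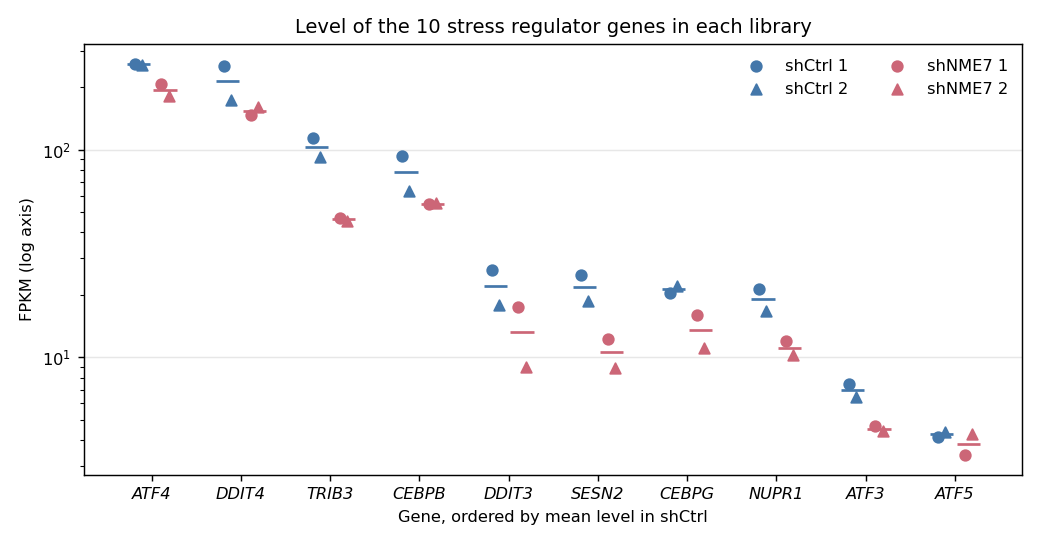
FPKM of each gene in each of the 4 libraries, on a log axis, with genes ordered by their mean in shCtrl. Blue marks are shCtrl and red marks shNME7 libraries, circles replicate 1 and triangles replicate 2, and short lines the group means (n = 2). ATF4 stood highest in both groups (means of 259 and 195) and ATF5 lowest (4.26 and 3.83), and ATF5 is the gene whose groups overlap.

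ATF4 itself (ENSG00000128272, chr22:39519695-39522685, plus strand, GRCh38) had the highest level of the 10 genes. Its FPKM was 261 in shCtrl 1 and 257 in shCtrl 2, against 207 in shNME7 1 and 182 in shNME7 2. The shCtrl libraries lay close together and both shNME7 libraries lay below them. The group means were 259 ± 2.90 and 195 ± 17.8 (SD, n = 2 each), a level 1.33-fold lower, and the log2 difference was -0.41 (SE 0.15). With the trend on GC content and length removed it was -0.54. Between 7778 and 10431 fragments stood behind each value. Fragments assigned to the ATF4 processed pseudogenes were few, 2 to 12 per library for ATF4P3 and 0 for ATF4P1, ATF4P2 and ATF4P4. The highest shNME7 library was 0.808 times the lowest shCtrl library, with a 95% exact binomial interval of 0.784 to 0.832 that covers counting error only.

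ATF3 and ATF5 are bZIP relatives of ATF4. ATF3, which is induced by many stresses and often acts as a repressor, lies at chr1:212565334-212620777 (ENSG00000162772, plus strand). It had 7.47 and 6.48 FPKM in shCtrl 1 and 2, against 4.66 and 4.42 in shNME7 1 and 2. The groups did not overlap, and the means, 6.97 ± 0.700 and 4.54 ± 0.173, differed 1.54-fold (log2 difference -0.52, SE 0.14). ATF5, whose message is also translated when eIF2 is phosphorylated and which serves the mitochondrial stress response, lies at chr19:49928702-49933935 (ENSG00000169136, plus strand). Its FPKM was 4.15 and 4.37 in shCtrl 1 and 2, against 3.38 and 4.29 in shNME7 1 and 2. The shNME7 2 library lay between the shCtrl libraries, so the groups overlapped, and the log2 difference of -0.13 (SE 0.16) was smaller than its error. Without shNME7 1 it was 0.0081, and with the trend on GC content and length removed -0.27. The ATF5 value is uncertain for another reason. It shares 626 exon bases with NUP62 on the opposite strand, which had 1343 to 1939 fragments per library against 150 to 215 for ATF5, and whether counting used the strand is not stated.

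DDIT3 (ENSG00000175197, chr12:57516588-57521737, minus strand) encodes CHOP, a bZIP factor that pairs with C/EBP proteins and is known for promoting cell death under lasting stress. Its FPKM was 26.4 in shCtrl 1 and 17.9 in shCtrl 2, and 17.4 in shNME7 1 and 8.96 in shNME7 2. The libraries of each group lay far apart, and shCtrl 2 and shNME7 1 were almost level. Their ratio was 0.974 (95% exact binomial interval 0.839 to 1.13), which holds equality within counting error. The means were 22.1 ± 6.02 and 13.2 ± 5.97 FPKM, 1.68-fold lower, and the log2 difference was -0.75 (SE 0.32). Single libraries set its size. It was -0.31 without shNME7 2 and -1.19 without shNME7 1. DDIT3 also shares 355 exon bases with MARS, the methionyl-tRNA synthetase gene and itself an ATF4 target, which lies on the opposite strand and had 42.0 and 43.2 FPKM in shCtrl against 29.7 and 31.3 in shNME7.

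The C/EBP partners CEBPB and CEBPG differed in how their libraries were spread. CEBPB (ENSG00000172216, chr20:50190734-50192689, plus strand) encodes an activator of inflammatory and metabolic genes. Its FPKM was 93.9 in shCtrl 1, 63.2 in shCtrl 2, 54.9 in shNME7 1 and 55.3 in shNME7 2. The shCtrl 1 library stood apart from the other 3. The means were 78.5 ± 21.7 and 55.1 ± 0.280, 1.43-fold lower, with a log2 difference of -0.48 (SE 0.21) that was -0.20 without shCtrl 1. With the trend on GC content and length removed it was -0.69. CEBPG (ENSG00000153879, chr19:33373330-33382686, plus strand) encodes a short C/EBP protein without its own activation domain that pairs with ATF4. Its FPKM was 20.5 and 22.2 in shCtrl 1 and 2, against 16.1 and 11.1 in shNME7 1 and 2. Here the shCtrl libraries lay together, and shNME7 2 was the lowest. The means of 21.4 ± 1.19 and 13.6 ± 3.55 differed 1.57-fold, and the log2 difference of -0.64 (SE 0.19) was -0.39 without shNME7 2.

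TRIB3 (ENSG00000101255, chr20:362835-397559, plus strand) encodes a pseudokinase that binds ATF4 and restrains it. It showed the largest log2 difference of the 10 genes. Its FPKM was 114 in shCtrl 1 and 92.0 in shCtrl 2, against 47.1 in shNME7 1 and 45.6 in shNME7 2. The shNME7 libraries lay close together and well below both shCtrl libraries, the closest pair having a ratio of 0.512 (95% exact binomial interval 0.487 to 0.537). The means were 103 ± 15.2 and 46.3 ± 1.06 FPKM, 2.22-fold lower, over 2430 to 6206 fragments per library. The log2 difference was -1.13 (SE 0.16), and -1.27 with the trend on GC content and length removed. In limma-trend the Benjamini-Hochberg adjusted p was 0.32. In limma-voom the log2 difference was -1.14 (SE 0.16, Benjamini-Hochberg adjusted p 0.00839). This comparison helped to choose the gene, so both p-values are a description. With single libraries left out, the limma-voom log2 difference ran from -1.29 (without shCtrl 2) to -0.99 (without shCtrl 1).

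NUPR1 (ENSG00000176046, chr16:28532708-28539174, minus strand) encodes a small stress-induced chromatin protein. Its FPKM was 21.4 and 16.7 in shCtrl 1 and 2, against 12.0 and 10.2 in shNME7 1 and 2. The groups did not overlap. The means of 19.0 ± 3.39 and 11.1 ± 1.27 differed 1.71-fold, with a log2 difference of -0.72 (SE 0.17) that stayed between -0.89 and -0.54 over the other settings tried.

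SESN2 and DDIT4 link the stress response to mTORC1. SESN2 (ENSG00000130766, chr1:28259527-28282491, plus strand) encodes sestrin 2, a leucine sensor that holds mTORC1 back when leucine is scarce. Its FPKM was 25.1 in shCtrl 1 and 18.6 in shCtrl 2, against 12.3 in shNME7 1 and 8.85 in shNME7 2. Each shNME7 library lay well below each shCtrl library. The means of 21.8 ± 4.54 and 10.6 ± 2.46 differed 2.06-fold, and the log2 difference was -0.98 (SE 0.21), the second largest of the 10 genes. DDIT4 (ENSG00000168209, chr10:72273920-72276036, plus strand) encodes REDD1, which restrains mTORC1 through the TSC complex. Its FPKM was 255 in shCtrl 1, 175 in shCtrl 2, 147 in shNME7 1 and 161 in shNME7 2. As for CEBPB, shCtrl 1 stood apart. The means of 215 ± 57.0 and 154 ± 10.3 differed 1.40-fold, with a log2 difference of -0.45 (SE 0.21) that was -0.18 without shCtrl 1. With the trend on GC content and length removed it was -0.61.

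**Figure D2:**
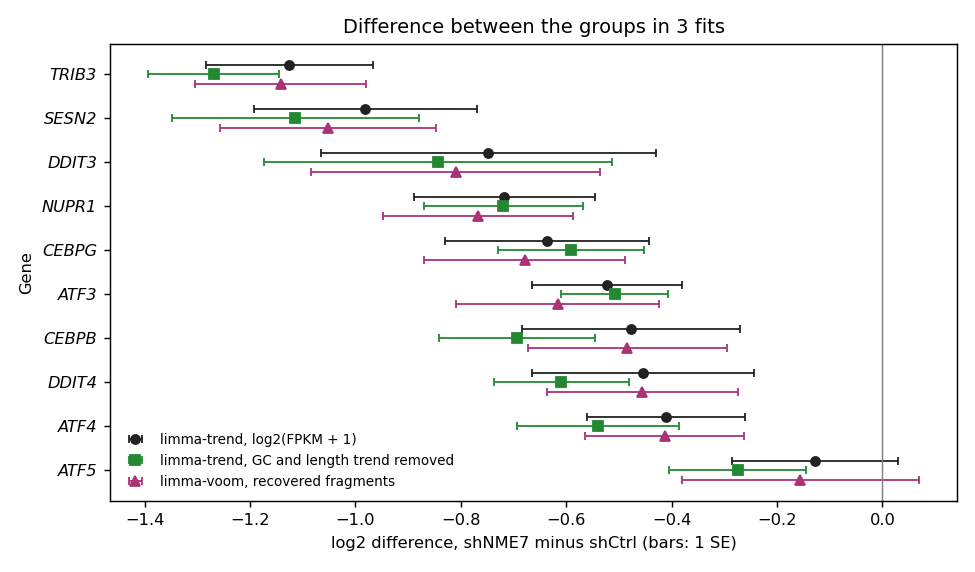
The log2 difference of each gene, shNME7 minus shCtrl, with bars of 1 SE, in 3 fits: limma-trend on log2(FPKM + 1) in black, the same with a trend on GC content and length removed in green, and limma-voom on recovered fragments in purple. TRIB3 (-1.13) and SESN2 (-0.98) lie farthest from 0 and ATF5 (-0.13) nearest, and in each of the 3 fits all 10 values are below 0.

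The differences were unequal, and each gene was therefore also set against ATF4 within its own library, as its log2(FPKM + 1) minus that of ATF4. TRIB3 lay at -1.19 and -1.47 in the shCtrl libraries, against -2.12 and -1.98 in the shNME7 libraries, so that it was lower relative to ATF4 in both shNME7 libraries. SESN2 lay at -3.33 and -3.71 against -3.97 and -4.22, again without overlap. DDIT3 lay at -3.26 and -3.77 against -3.50 and -4.20, where the groups overlapped. Averaged over the libraries, the difference from ATF4 changed by -0.71 for TRIB3, -0.57 for SESN2, -0.34 for DDIT3 and -0.31 for NUPR1. It changed by less than 0.25 in size for CEBPG (-0.23), ATF3 (-0.11), CEBPB (-0.07) and DDIT4 (-0.04), and by 0.28 for ATF5, on this scale the sole gene to stand higher relative to ATF4 in shNME7. That depended on the fit. With the trend on GC content and length removed, ATF3 (-0.51) was also less far below 0 than ATF4 (-0.54). In that fit CEBPG (-0.59) and NUPR1 (-0.72) lay nearer to ATF4.

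In order of FPKM in shCtrl, ATF4 and DDIT4 were followed by TRIB3 and CEBPB, then by DDIT3, SESN2, CEBPG and NUPR1, and last by ATF3 and ATF5. The mean of ATF4 stood at percentile 99.3 of all tested genes, that of DDIT4 at 99.1 and that of TRIB3 at 97.5, whereas ATF3 stood at 50.9 and ATF5 at 35.9. TRIB3 and CEBPB overlapped in shCtrl, as did each neighbouring pair from DDIT3 to NUPR1, so the order inside those sets is not resolved. In shNME7 the order of TRIB3 and CEBPB was the other way round, at 46.3 against 55.1 FPKM, with no overlap between their libraries. SESN2 moved from above CEBPG and NUPR1 to below both by mean, although its libraries overlapped theirs.

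Libraries of one group differed from each other, over all genes and for some of these genes. A chi-square per degree of freedom was taken between the fragment counts of each pair, over genes with 10 or more fragments. It was 13.5 between the shCtrl libraries and 24.3 between the shNME7 libraries. The shNME7 1 library stood at 15.3 from shCtrl 1 and 12.5 from shCtrl 2, nearer to both than to shNME7 2. The shNME7 2 library stood at 16.1 from shCtrl 1 and 38.9 from shCtrl 2. The shCtrl 1 library was higher than shCtrl 2 for 8 of the 10 genes, beside 49.7% of all tested genes, and the median absolute log2 difference between those libraries was 0.32 for the 10 genes and 0.16 for all. DDIT3, CEBPB and DDIT4 were 1.48-fold, 1.49-fold and 1.46-fold higher in shCtrl 1 than in shCtrl 2, while ATF4 was 1.02-fold higher. Between the shNME7 libraries the median was 0.20 for the 10 genes and 0.21 for all, and DDIT3 was the most uneven, 1.94-fold higher in shNME7 1. JUND and JUNB, bZIP genes of the JUN family, also had a high shCtrl 1 library, at 121 and 119 FPKM against 74.9 and 74.7 in shCtrl 2. Their GC content was 69.7% and 64.9%. It was 66.2% for CEBPB, 58.1% for DDIT4 and 49.7% for DDIT3, beside a median of 48.1% over tested genes. The part of GC content in this spread was not tested.

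Genes with the most similar profile were sought by the Euclidean distance between log2(FPKM + 1) values, centred on each gene's mean over the 4 libraries, among 4870 genes with a mean of at least 10 FPKM. For ATF4 the nearest were TES, a focal adhesion protein gene (distance 0.0233), KLF5, a Krüppel-like transcription factor gene (0.0467), and KMT5A, a histone H4 methyltransferase gene (0.0490). TES had 29.04 and 28.6 FPKM in shCtrl against 23.0 and 20.4 in shNME7, and KLF5 had 57.6 and 56.8 against 43.9 and 39.2. These 3 genes share with ATF4 a tight pair of shCtrl libraries and a lower shNME7 2. For TRIB3 the nearest were FTL, the ferritin light chain gene (0.213), STC2, the stanniocalcin 2 gene (0.271), and SESN2 (0.321). For DDIT3 they were SESN2 (0.404), the pseudogene NPM1P27 (0.465) and TSC22D3, a glucocorticoid-induced leucine zipper gene (0.479). Thus SESN2 was among the nearest genes of both TRIB3 and DDIT3. Of the 7 other regulators with a mean of at least 10 FPKM the nearest to ATF4 was CEBPG. Its distance from ATF4, 0.331, lay between those of SESN2 from TRIB3 and from DDIT3. It nevertheless ranked 846, because many more genes lay that close to ATF4. With 4 libraries in 2 groups, many genes share such a profile, and the distances are a description.

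Around the regulators, 39 genes for amino acid enzymes, transporters, tRNA synthetases and secreted factors known as ATF4 targets were listed, of which 37 were tested. Their direction was known when the list was made, so it is not independent evidence. In shNME7 34 had a lower and 3 a higher mean, with a median log2 difference of -0.46 beside 0.01 for all tested genes, and in 32 each shNME7 library lay below each shCtrl library, a pattern of 18.4% of all tested genes. In 1, ALDH18A1, each lay above. The secreted activin subunit gene INHBE had 13.8 and 9.50 FPKM in shCtrl against 4.28 and 2.89 in shNME7. The cystine transporter gene SLC7A11 had 22.2 and 24.9 against 10.2 and 6.71. Their groups lay far apart, as did those of CHAC1, which encodes an enzyme that degrades glutathione, at 29.6 and 24.1 against 11.5 and 8.27, and of STC2, at 22.2 and 19.3 against 11.5 and 9.003. The log2 differences of these 4 genes were -1.46, -1.40, -1.36 and -0.96, of which the first 3 exceeded that of TRIB3. The 3 genes with a higher mean were PYCR1 (0.22) and ALDH18A1 (0.15), which act in proline synthesis, and EIF4EBP1 (0.06), chosen after their values were seen. With the trend on GC content and length removed, EIF4EBP1 was on the other side of 0 (-0.17) and PYCR1 at 0.06, which left 35 lower and 2 higher. limma-trend called 0 of the 37, with 26 lower at an unadjusted p under 0.05, beside 414 of all 12866 tested genes. limma-voom tested 38 and called the 4 named above, beside 14 called lower of all 15112.

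Upstream of ATF4, the kinases and regulators of eIF2 did not share one direction. Of 18 genes, all tested, 11 had a lower and 7 a higher mean, with a median log2 difference of -0.02. Each shNME7 library lay below each shCtrl library in 5 (18.4% of all tested genes) and above in 3, the eIF2B subunit genes EIF2B2, EIF2B4 and EIF2B5 (17.8% of all tested genes). The 4 eIF2 kinase genes had log2 differences of -0.01 for EIF2AK1 (HRI, activated by heme shortage), 0.04 for EIF2AK2 (PKR, activated by double-stranded RNA), -0.18 for EIF2AK3 (PERK, activated by unfolded protein) and -0.02 for EIF2AK4 (GCN2, activated by uncharged tRNA). The member with the largest difference was PPP1R15A, which encodes the inducible phosphatase subunit GADD34 that reverses eIF2 phosphorylation and is itself an ATF4 and DDIT3 target. It had 14.8 and 12.4 FPKM in shCtrl against 8.67 and 9.06 in shNME7 (log2 difference -0.56, SE 0.15). Its constitutive relative PPP1R15B had 46.8 and 50.1 against 40.9 and 33.6 (-0.38), without overlap. The eIF2 subunit genes EIF2S2 (-0.27) and EIF2S3 (-0.23) followed. limma-trend and limma-voom each called 0 of the 18, with 2 lower at an unadjusted p under 0.05 in each test. Over all genes, 414 of 12866 and 602 of 15112 were lower at that p. With the trend on GC content and length removed, 9 were lower and 9 higher with a median of 0.01, and EIF2AK1 (0.03) and EIF2AK4 (0.05) turned to values above 0, with EIF2AK2 at 0.17. With FPKM rescaled to a common sum per library (TPM), 14 of the 18 were lower.

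Of 47 other bZIP genes 32 were tested, 26 with a lower and 6 with a higher mean in shNME7. Without shCtrl 1, 19 were lower. In limma-voom, which tested 39, 27 were lower and 12 higher, with a median log2 difference of -0.08. The values that follow are from limma-trend on the 32. Their median log2 difference was -0.13, beside 0.01 for all tested genes. In 12 of the 32 each shNME7 library lay below each shCtrl library, against 1, CREB3L4, with each above (18.4% and 17.8% of all tested genes). NFIL3, which encodes a repressor related to the C/EBP factors, had the largest difference, at 14.2 and 14.6 FPKM in shCtrl against 10.2 and 7.26 in shNME7 (-0.68, SE 0.18). JDP2, a dimer partner of JUN and relative of ATF3, had 9.22 and 6.14 against 5.53 and 4.77 (-0.48). BACH1, a heme-binding repressor, differed by -0.40, and XBP1, the factor of the IRE1 arm of the unfolded protein response, had 76.2 and 71.9 against 63.2 and 50.6 (-0.38). In these 4 genes the groups did not overlap. The bZIP genes with the highest levels besides XBP1 differed less, namely JUND (-0.03), JUNB (-0.17), NFE2L1 (-0.16) and ATF1 (-0.13), and the FPKM of their groups overlapped. That order depended on the fit, since with the trend on GC content and length removed JUNB was at -0.38 and JUND at -0.27, beside -0.36 for XBP1, -0.28 for BACH1, -0.22 for NFE2L1 and -0.08 for ATF1. limma-trend and limma-voom each called 0 of these bZIP genes. At an unadjusted p under 0.05, 3 of 32 and 6 of 39 were lower, beside 414 of 12866 and 602 of 15112 over all genes.

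**Figure D3:**
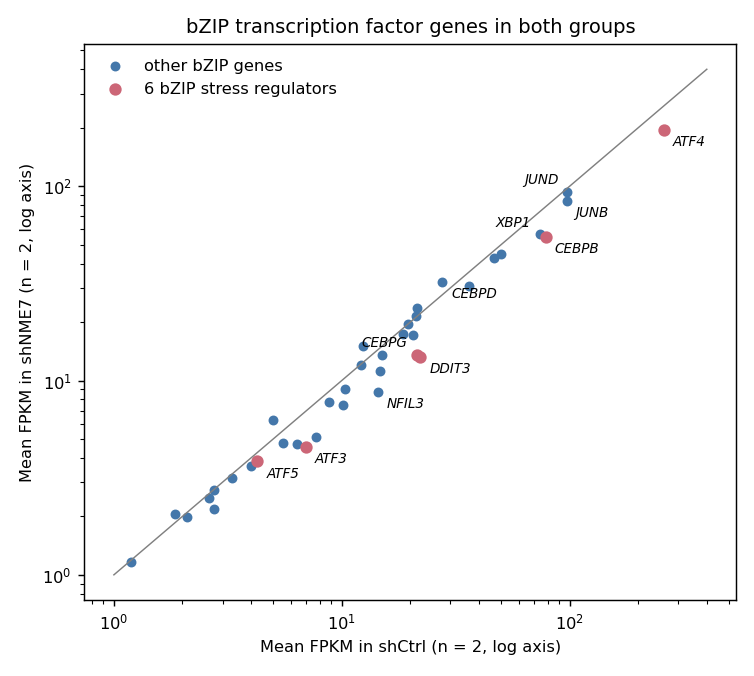
Mean FPKM of bZIP genes in shCtrl (horizontal) and shNME7 (vertical), both on log axes and each a mean of 2 libraries, with a line of equal level. The 6 bZIP genes of the group (red) lie below the line, from ATF4 at 259 and 195 to ATF5 at 4.26 and 3.83, and 26 of the 32 other tested bZIP genes (blue) lie below it.

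Downstream of the regulators, 5 genes ascribed to DDIT3 all had lower means, with a median log2 difference of -0.13. Apart from PPP1R15A the differences were small, at -0.14 for TNFRSF10B, which encodes the death receptor DR5, and -0.13 for ERO1A, an oxidase of the endoplasmic reticulum, which was at -0.01 with the trend on GC content and length removed. Chaperone and degradation genes of the ATF6 and XBP1 arms went both ways, 10 of 16 with a lower and 6 with a higher mean (median -0.04). HERPUD1, which acts in degradation of misfolded protein, had 27.5 and 26.0 FPKM in shCtrl against 20.02 and 15.8 in shNME7 (-0.56), while the secreted stress proteins CRELD2 (0.41) and MANF (0.38) had higher means. The main chaperone of the compartment, HSPA5, differed by -0.05. limma-trend and limma-voom each called 0 genes of both lists. At an unadjusted p under 0.05 they had 1 and 1 lower for the DDIT3 targets, and for the chaperones 1 lower and 1 higher in limma-trend and 2 and 2 in limma-voom. Over all genes there were 414 lower and 445 higher of 12866 in limma-trend, and 602 and 595 of 15112 in limma-voom.

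For mTORC1 and its regulators, on which SESN2 and DDIT4 act, 28 of 30 genes were tested, 10 with a log2 difference below 0 and 18 above (median 0.04). Rescaled to TPM, 14 of the 28 were below 0. Each shNME7 library lay above each shCtrl library in FPKM for 7 of the 28, and 17.8% of all tested genes did so. LAMTOR2, a subunit of the Ragulator complex that anchors mTORC1 at lysosomes, had 32.0 and 26.3 FPKM in shCtrl against 38.8 and 48.6 in shNME7 (0.57, SE 0.18). LAMTOR4 (0.39), LAMTOR5 (0.33) and the Rag GTPase gene RRAGA (0.33) also had higher means, with LAMTOR4 and RRAGA each at 0.22 when the trend on GC content and length was removed. limma-trend and limma-voom each called 0 of these genes, with 1 higher at an unadjusted p under 0.05 in each test. Over all genes, 445 of 12866 and 595 of 15112 were higher at that p. Of 6 close relatives of TRIB3, SESN2, DDIT4 and NUPR1 2 had a mean of at least 1 FPKM, TRIB1 (log2 difference -0.27) and SESN1 (0.34), both under 5 FPKM.

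**Figure D4:**
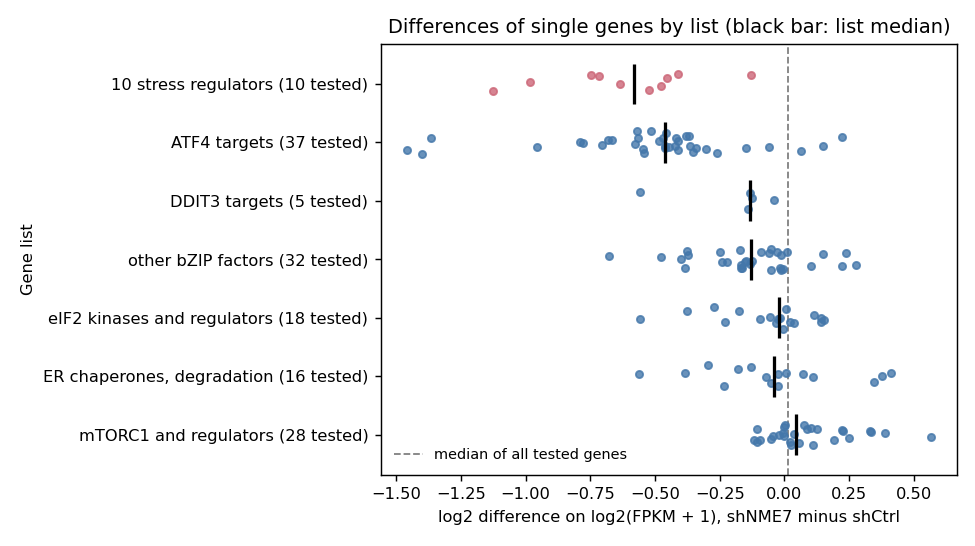
Each point is the log2 difference of 1 tested gene on the log2(FPKM + 1) scale, shNME7 minus shCtrl, in rows by gene list. Black bars are list medians and the dashed line is the median of all tested genes (0.01). The medians run from -0.58 for the 10 stress regulators and -0.46 for the ATF4 targets to 0.04 for mTORC1 and its regulators, and points are spread vertically for legibility.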

How the data were processed

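Per the labels' protocols, RNA was taken with Trizol from cells labelled Huh7 and made into Illumina libraries. The authors deposited 1 table of FPKM values per library for 58735 genes, the unit being named per the file headers. HISAT2 2.0.5 and the build hg18 are listed, per the submitters' processing notes. The counter, its use of strand and the annotation are not stated there. All 58735 IDs occur in GENCODE release 29, which annotates GRCh38, and names, exon lengths and coordinates are from it.

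FPKM times exon length gave whole multiples of 1 step per library (100% of values above 0 within 0.01 of a whole number), so fragments were recovered, 15865321 and 16050268 in the shCtrl libraries against 14877906 and 16991397 in the shNME7 libraries. The main test was limma-trend (limma 3.58.1, R 4.3.3) on log2(FPKM + 1), a scale that understates differences of low genes. It used 12866 genes whose mean FPKM was 1 or more, a group term, and Benjamini-Hochberg adjustment at 0.05. The other settings were a pseudocount of 0.1, no filter, the replicate number as a block, rescaling to TPM, removal of a loess trend (span 0.3) on GC content and length, each library left out, an adjusted p of 0.1, and limma-voom on the recovered fragments (15112 genes whose mean was 10 or more), with and without the block. Same-numbered libraries did not deviate together (correlation of deviations -0.35), so they are not treated as pairs.

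The 10 genes, the lists and the tests were chosen with earlier results of these data known. Genes named besides the 10 and NME7 were, per list, up to 4 with the largest absolute log2 difference and a mean of 5 FPKM or more in either group, the 5 other bZIP genes with the highest mean, and the 3 nearest in profile to ATF4, TRIB3 and DDIT3. The eIF2 kinases, EIF2B2, EIF2B4, EIF2B5, CREB3L4, the ATF4 targets with a higher mean, HSPA5, MARS, NUP62, TRIB1, SESN1 and markers are named outside that rule, after their values were seen. Start site windows are from RefSeq on GRCh38.p14.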

Additional observations from a re-analysis of the deposited data

How the results depend on the processing

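Of 110 values of the 10 genes under other settings 109 were below 0, the exception being ATF5 at 0.0081 without shNME7 1. These values are refits of the same 4 libraries, for genes that this comparison helped to choose, and are not independent checks. For the 9 genes whose groups did not overlap, leaving out a library could not change the sign, so the count says little. In limma-trend, dropping the filter or adding the block left each log2 difference as it was. With single libraries left out ATF5 ran from -0.26 to 0.0081, and with the trend on GC content and length removed it was -0.27. Counts of calls depended on the setting, and the cause was not tested. Against 0 in limma-trend, genes called lower numbered 63 with the replicate block, 1 with the trend on GC content and length removed, 14 in limma-voom, 24 in limma-voom with the block, and 49 to 222 with single libraries left out. Genes called higher, also 0, numbered 59 with the replicate block, 2 in limma-voom, 10 in limma-voom with the block, and 51 to 410 with single libraries left out. Of the 10 genes, 2 were called with the block (TRIB3, adjusted p 0.0140, and SESN2, 0.0221, in limma-trend), 1 in limma-voom, 2 in limma-voom with the block, and 0 to 5 with single libraries left out. The 5 were DDIT3, TRIB3, CEBPG, NUPR1 and SESN2, without shNME7 1. A lone library was assumed to vary like the other group. A crossed pairing, chosen after seeing the data, gave 0 calls each way. Lower members of the eIF2 list, 11 of 18, numbered 7 to 13 with single libraries left out, the fewest without shCtrl 2. Those of the mTORC1 list, 10 of 28, numbered 6 to 13, the fewest without shNME7 1. Rescaled to TPM, 14 of the 18 eIF2 genes and 14 of the 28 mTORC1 genes were lower. Of the close relatives 2 were lower with no filter, in limma-voom and in limma-voom with the block, against 1. At this depth the closest libraries across the groups did not differ beyond counting error for ATF5 and DDIT3.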
